A study of Mus musculus with 4 samples.

Results

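The genes described here are 10 genes of microglia and other macrophages, chosen by name: Csf1r, Aif1, Cx3cr1, C1qa, C1qb, C1qc, Ptprc, Tyrobp, Fcer1g and Mrc1, out of 24971 genes counted in the series. RNA came from neural tubes of mouse embryos of the C57BL/6 background at E12.5. Of the 4 libraries, 2 were labelled wild type (WT) and 2 Lbx1Δ/Δ, a mutation of Lbx1, which encodes a homeodomain factor of dorsal spinal cord interneurons. Tubes of littermates that shared a genotype were pooled to give each library, and the labels number the pools 1 and 2 within each genotype. The libraries labelled Lbx1Δ/Δ are called the mutant-labelled pair, or mutant-labelled library 1 and 2. The labels do not state which part of Lbx1 was removed, how many tubes were pooled, or whether equal numbers mark a shared litter.

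Microglia are the resident macrophages of the central nervous system. They descend from yolk sac progenitors that enter the neural tube before birth, beside macrophages that stay in the meninges and around vessels. Survival of both depends on the receptor Csf1r, and the factor PU.1, encoded by Spi1, drives the lineage. The cells clear dying cells, make the C1q complex that opens the classical complement pathway, and read signals from neurons through Cx3cr1.

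Total counts were 16853984 to 20579803 per library, so that 3 counts correspond to 0.146 to 0.178 CPM, counts scaled to the library total, which is the unit of all levels below. WT libraries 1 and 2 held 819 and 1379 counts of Lbx1 itself, and the mutant-labelled pair 1946 and 6520. The targeted gene was thus higher under the mutant label, whether its counted transcript lies outside the deletion is not stated, and every direction below is between libraries as labelled. Of neural genes, Sox2, a factor of neural progenitors, was at 255 to 300.2 CPM, and Tubb3, a tubulin of neurons, at 1766 to 3748 CPM. Pax6, another progenitor factor, was listed at 0. The neuron genes Elavl4, Dcx and Snap25 had 3, 22 and 23 counts in total. Pax6, Elavl4, Dcx and Snap25 all have several accessions. Col3a1, a mesenchyme marker, was at 1641 to 2447 CPM, so these levels do not show what share of the RNA was neural. In pooled tissue, fewer macrophages and less RNA per macrophage cannot be told apart.

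Promoter sequences, from 250 bases before to 50 bases after the annotated start, were found for 7 of the 10 genes in RefSeq (GRCm38.p6), and not for Csf1r, C1qa or Tyrobp. Those of C1qb and C1qc are shown because these neighbours encode chains of the same complex, that of Mrc1 because its level went with the number of the pool, and that of Cx3cr1 for contrast. Each is written 5′ to 3′ on the strand of its gene, and capitals mark the letters AGGAAGT or their reverse complement, a word that holds the GGAA core bound by PU.1 and other ETS factors. C1qb, C1qc and Cx3cr1 lie on the minus strand, at chr4:136886151-136886450, chr4:136892865-136893164 and chr9:120068247-120068546, and Mrc1 on the plus strand, at chr2:14229164-14229463.
C1qb: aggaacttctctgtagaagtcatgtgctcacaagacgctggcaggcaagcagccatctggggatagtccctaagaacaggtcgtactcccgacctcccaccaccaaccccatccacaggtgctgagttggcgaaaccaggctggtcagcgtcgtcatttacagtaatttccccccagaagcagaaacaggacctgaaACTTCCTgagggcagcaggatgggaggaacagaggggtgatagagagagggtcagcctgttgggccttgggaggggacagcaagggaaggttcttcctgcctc
C1qc: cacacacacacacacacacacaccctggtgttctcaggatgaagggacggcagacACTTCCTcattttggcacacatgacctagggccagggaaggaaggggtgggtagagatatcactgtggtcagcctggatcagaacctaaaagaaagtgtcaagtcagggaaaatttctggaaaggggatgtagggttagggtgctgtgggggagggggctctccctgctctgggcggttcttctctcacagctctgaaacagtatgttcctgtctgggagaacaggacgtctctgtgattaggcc
Mrc1: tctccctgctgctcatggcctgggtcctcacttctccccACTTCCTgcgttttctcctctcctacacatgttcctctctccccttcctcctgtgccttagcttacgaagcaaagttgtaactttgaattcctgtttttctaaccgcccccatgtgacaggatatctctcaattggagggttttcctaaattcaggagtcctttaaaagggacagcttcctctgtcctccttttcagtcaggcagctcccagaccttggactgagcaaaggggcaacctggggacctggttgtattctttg
Cx3cr1: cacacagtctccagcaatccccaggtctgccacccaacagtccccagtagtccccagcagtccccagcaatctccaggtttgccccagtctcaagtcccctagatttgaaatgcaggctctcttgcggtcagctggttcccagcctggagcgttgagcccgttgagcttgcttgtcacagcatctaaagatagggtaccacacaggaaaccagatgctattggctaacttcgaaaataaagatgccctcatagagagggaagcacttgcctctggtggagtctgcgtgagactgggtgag
On either strand, the word occurred in the windows of 4 of the 7 genes, C1qb, C1qc, Mrc1 and Ptprc. Counted by window, these were 5 of the 8 windows of the 7 genes, against 9.35% of all 32851 promoter windows. Cx3cr1, Fcer1g and Aif1 had no match in these windows. The word was chosen after the windows had been read, among 5 words that overlap each other. The others were GAGGAAGT (1 gene and 1 of the 8 windows, 3.20% of all windows), GAGGAAG (2 and 2, 13.6%), GAGGAA (5 and 5, 28.3%) and AGGAAG (5 and 6, 35.4%). A match is a description of these letters and not a binding site.

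Csf1r, the receptor for the growth factors CSF1 and IL-34, was the steadiest of the 8 genes that could be compared. WT libraries 1 and 2 were at 35.7 and 40.9 CPM, and mutant-labelled libraries 1 and 2 at 34.3 and 39.1 CPM, from 591 to 735 counts. The highest library was 1.19 times the lowest, and the genotypes overlapped. WT averaged 38.3 ± 3.66 CPM (SD, n = 2) and the mutant-labelled pair 36.7 ± 3.42 CPM (SD, n = 2), a fitted log2 difference of −0.08 (SE 0.20).

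Cx3cr1, the receptor for the neuronal chemokine fractalkine, was at 19.8 and 13.9 CPM in WT and at 11.5 and 15.8 CPM in the mutant-labelled pair. WT library 1 was highest and mutant-labelled library 1 lowest, and the genotypes overlapped. The log2 difference between genotypes was −0.32 (SE 0.32). Set against Csf1r in the same library, Cx3cr1 had 0.555 counts per Csf1r count in WT library 1 and 0.335 to 0.404 in the other 3.

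The C1q genes encode the A, B and C chains that assemble into C1q, and lie side by side on chromosome 4 with no other annotated gene starting between them. C1qa was at 9.72 and 10.6 CPM in WT and at 11.2 and 15.01 CPM in the mutant-labelled pair, with both mutant values above both WT values. C1qb went the other way, at 19.7 and 17.2 CPM in WT and 15.6 and 15.9 CPM in the mutant-labelled pair. C1qc was at 14.2 and 14.8 CPM in WT and at 10.5 and 17.9 CPM in the mutant-labelled pair, so that the mutant values lay on either side of WT. The chains of this complex did not share a direction between the genotypes as labelled.

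The ratio of C1qa to C1qb counts needs no scaling, but it had to separate by genotype. Both C1qa levels were higher, and both C1qb levels lower, under the mutant label, so the ratio is no further support. Within WT the ratio rose from 0.493 in number 1 to 0.615 in number 2. Within the mutant-labelled pair it rose likewise, from 0.721 to 0.944. Levels without overlap between genotypes were seen for 20.6% of all genes tested. Fitted log2 differences were 0.36 (SE 0.28) for C1qa, −0.24 (SE 0.23) for C1qb and −0.05 (SE 0.33) for C1qc, none of which passed the test given below. A difference between the chains was not tested.

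Tyrobp (DAP12) and Fcer1g are short membrane adaptors that carry the activation motifs for receptors on macrophages. Tyrobp was at 6.27 and 4.48 CPM in WT and at 3.25 and 5.99 CPM in the mutant-labelled pair. Its exact 95% binomial interval (Clopper-Pearson, counting error only) was 5.23 to 7.45 CPM in WT library 1 and 2.45 to 4.22 CPM in mutant-labelled library 1. Those 2 libraries, the highest and the lowest for Tyrobp, therefore differed beyond counting error, while the genotypes overlapped. Averaged over 9531 genes, the chi-square for counting error between these 2 libraries was 15.8 per gene, so this is not particular to Tyrobp.

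Fcer1g was at 9.43 and 4.31 CPM in WT and at 6.26 and 6.70 CPM in the mutant-labelled pair. The WT pair spanned both mutant values, with a WT mean of 6.87 ± 3.62 CPM (SD, n = 2) against 6.48 ± 0.314 CPM (SD, n = 2). The log2 differences were −0.24 (SE 0.44) for Tyrobp and −0.10 (SE 0.46) for Fcer1g. Fcer1g per Tyrobp count ranged from 0.961 in WT library 2 to 1.93 in mutant-labelled library 1.

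Mrc1 encodes the mannose receptor CD206, a marker of macrophages at the borders of the nervous system that is low in microglia, and which some endothelia also make. Its level was 10.7 CPM in WT library 1 and 11.01 CPM in mutant-labelled library 1, and 25.0 and 18.6 CPM in the libraries numbered 2. Both libraries numbered 2 were above both numbered 1, whatever the genotype label. Between genotypes the log2 difference was −0.28 (SE 0.51), with a WT mean of 17.9 ± 10.1 CPM (SD, n = 2) and a mutant mean of 14.8 ± 5.39 CPM (SD, n = 2).

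Aif1, which encodes the calcium-binding protein IBA1 used to stain microglia, was listed at 0 in all 4 libraries. Ptprc, which encodes CD45, a phosphatase of all leukocytes, had 0 counts in 3 libraries and 10 in mutant-labelled library 2, a level of 0.593 CPM. These are the 2 genes of the 10 that the files count under several accessions, 3 for each, whereas the other 8 have 1. All 10 counts of Ptprc were on 1 of its accessions. Of the 50-base windows of the transcript of that accession, 9.25% occur in neither of the other Ptprc accessions, against 1.29% and 1.05% for the other ones.

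The same held for other macrophage genes. Of 43 further genes in 5 lists of macrophage genes, 18 have several accessions and 15 of these were listed at 0, among them Irf8, P2ry12, Siglech, Cd163, Trem2, Adgre1 and Ctss. Of the 25 with 1 accession, 1 (Sirpb1a) was at 0. Over the whole series, 38.9% of 7924 genes with several accessions were at 0 in all libraries, against 30.2% of 17047 genes with 1. A count of 0 for Aif1 therefore gives no level of that gene: how reads shared by accessions were handled is not given in the sources used here.

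**Figure D1:**
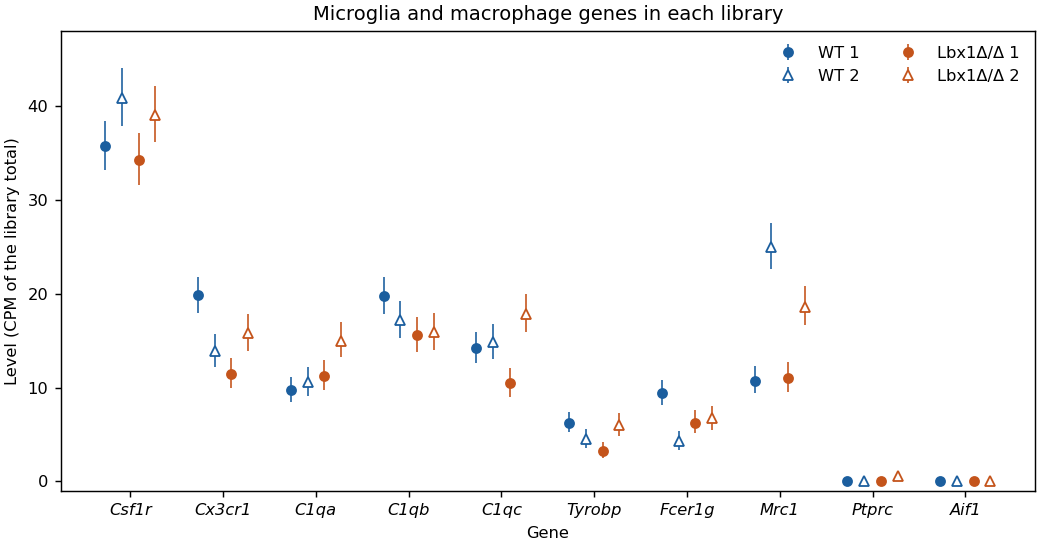
Level of each of the 10 genes in CPM of the library total (vertical axis) in each library, with exact 95% binomial intervals for counting error (WT in blue, Lbx1Δ/Δ in orange, number 1 filled circles, number 2 open triangles). Csf1r lies between 34.3 and 40.9 CPM, Mrc1 is at 10.7 and 11.01 CPM in the libraries numbered 1 and at 25.0 and 18.6 CPM in those numbered 2, and Aif1 is at 0.

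Levels of different genes were compared per kb of the annotated transcript, over the 8 genes with 1 accession. C1qb was highest with a mean of 15.7 CPM per kb over the 4 libraries, followed by C1qc at 11.9, C1qa at 11.2, Fcer1g at 9.90, Csf1r at 9.69 and Tyrobp at 8.86 CPM per kb. Cx3cr1 and Mrc1 were lowest, at 4.06 and 3.04 CPM per kb. Neighbours in this order overlapped between libraries, except that the highest Cx3cr1 value, 5.28 CPM per kb, was below the lowest of Tyrobp, 5.76 CPM per kb. The C1q chains, the adaptors and Csf1r thus stood above Cx3cr1 and Mrc1 per length in all 4 libraries.

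**Figure D2:**
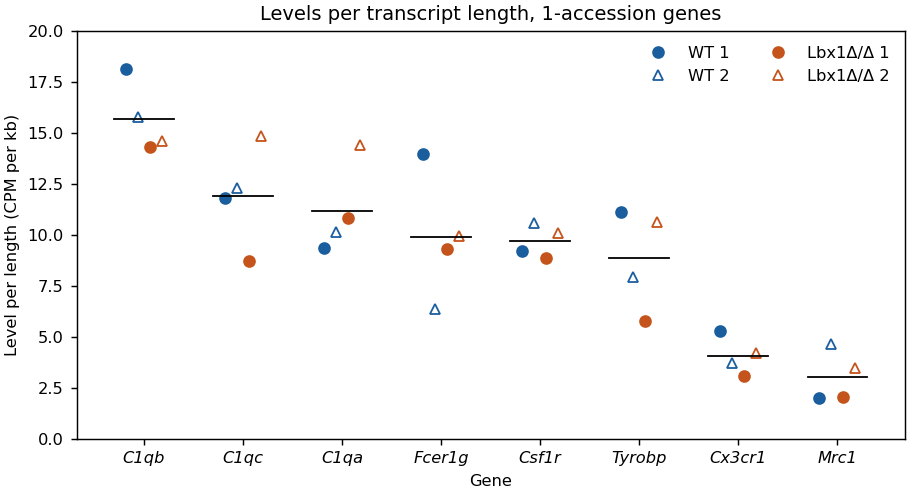
Level per transcript length (CPM per kb, vertical axis) of the 8 genes with 1 accession, ordered by their mean over the 4 libraries (black bar), with WT in blue, Lbx1Δ/Δ in orange, number 1 as filled circles and number 2 as open triangles. The means fall from 15.7 CPM per kb for C1qb to 3.04 CPM per kb for Mrc1, with a gap between Tyrobp and Cx3cr1.

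The 10 genes summed to 126 and 131 CPM in WT and 104 and 136 CPM in the mutant-labelled pair. Aif1 was at 0 and Ptprc had 10 counts in total, so this sum rests on the other 8 genes. The intervals for counting error were 121 to 131 and 126 to 137 CPM in WT, and 98.8 to 109 and 130 to 141 CPM in the mutant-labelled pair. Mutant-labelled library 1 was below the other 3, and held the lowest value of 5 of the 8 comparable genes (Csf1r, Cx3cr1, C1qb, C1qc and Tyrobp). Of all 10757 genes tested, 22.3% had their lowest value there. Without Mrc1 the sums were 115, 106, 92.6 and 117 CPM in the same order.

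None of the 8 macrophage genes that could be tested was called between genotypes. Of 10757 genes that passed the filter on low counts, 0 (0%) had an adjusted p under 0.05 in edgeR's quasi-likelihood test on genotype, two-sided with Benjamini-Hochberg adjustment, and 55 had an unadjusted p under 0.05. DESeq2 also called 0, with 33 at an unadjusted p under 0.05. The 8 macrophage genes that passed the filter, all but Aif1 and Ptprc, each had an edgeR adjusted p of 0.9998, and their smallest unadjusted p was 0.255, for C1qa. Of these 8, 7 had lower and 1 higher fitted values in the mutant-labelled pair, with a median log2 difference of −0.17. Of all 10757 genes 5435 were lower and 5322 higher, with a median of −0.0026. Levels did not overlap between genotypes for 2 of the 8, C1qa and C1qb, while 20.6% of all genes had no overlap. Of all genes, 11.3% were higher without overlap in the mutant-labelled pair, as C1qa was, and 9.31% in WT, as C1qb was.

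The size of the genotype difference rested on single libraries. Without WT library 1, that of Fcer1g turned to 0.59 and that of Tyrobp to 0.04, and without WT library 2 those of Csf1r and Mrc1 turned to 0.018 and 0.44. Without mutant-labelled library 1, the differences of Csf1r, C1qc, Tyrobp and Mrc1 turned to 0.016, 0.28, 0.14 and 0.05. The direction of C1qa, C1qb and Cx3cr1 was the same whichever library was left out, with C1qa between 0.15 and 0.55. C1qb lay between −0.34 and −0.12 and Cx3cr1 between −0.56 and −0.02, the last without WT library 1. For C1qa and C1qb the steady direction followed from levels that did not overlap between genotypes, as for 20.6% of all genes. It is therefore no further support.

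**Figure D3:**
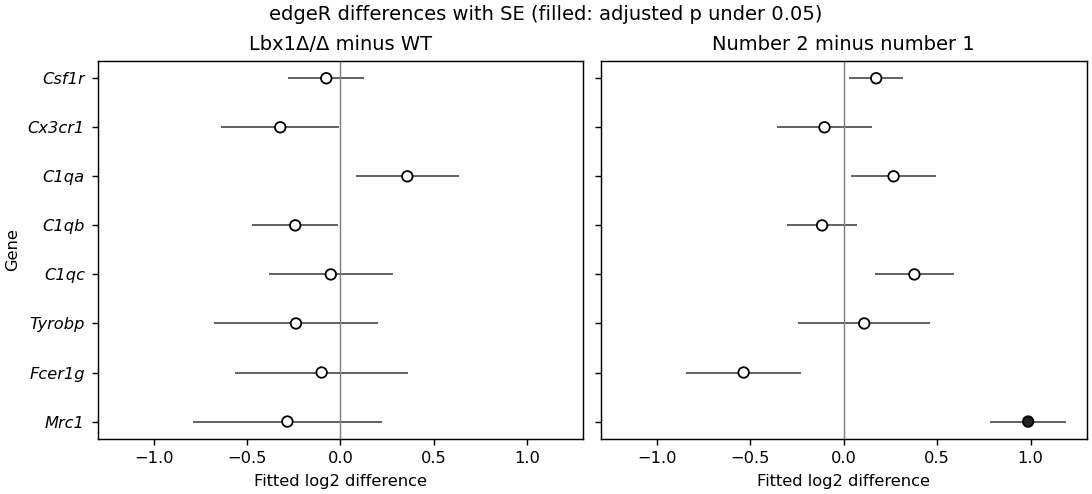
Fitted log2 difference (horizontal axis) with its SE from edgeR for the 8 genes that passed the filter, between genotypes on the left and between replicate numbers on the right, where filled points have an adjusted p under 0.05. The genotype differences lie between −0.32 for Cx3cr1 and 0.36 for C1qa, all open, and on the right only Mrc1, at 0.99, is filled.

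Compared by the number on the label, Mrc1 rose in the pools numbered 2. The fitted log2 difference was 0.99 (SE 0.20), 1.98-fold, with an edgeR adjusted p of 0.00691. It was 2.33-fold within WT and 1.69-fold within the mutant-labelled pair. By this test 25.5% of all genes differed and 13.3% were higher in number 2, so that 1 of 8 macrophage genes is no larger a share than among all genes. With genotype as a further term, 35.6% of all genes differed, 17.8% were higher in number 2, and Mrc1 remained the 1 macrophage gene called (edgeR adjusted p = 0.000475). The call was lost without WT library 1 (edgeR adjusted p = 0.161, log2 difference 0.96) and without mutant-labelled library 1 (edgeR adjusted p = 0.118, log2 difference 1.01), and over all genes 1 and 6 calls were left there. With either of those out, number 1 held a single library. With number 2 held to a single library the call stayed, at an edgeR adjusted p of 0.00594 without WT library 2 and 1.69e-05 without mutant-labelled library 2.

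The other 7 genes did not pass the test on number, with edgeR adjusted p-values of 0.222 to 0.855. Csf1r and C1qc were also higher in both libraries numbered 2 (log2 0.17, SE 0.14, and 0.38, SE 0.21), without overlap. With Mrc1 these were 3 of the 8, all higher in number 2, whereas 66.0% of all genes had no overlap by number, 34.1% higher in number 2 and 31.9% higher in number 1. C1qa had a log2 difference of 0.27 (SE 0.23), Tyrobp 0.11 (SE 0.35), Cx3cr1 −0.10 (SE 0.25), C1qb −0.12 (SE 0.19) and Fcer1g −0.54 (SE 0.31). A difference between Mrc1 and the other 7 in this respect was not tested.

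Among yolk sac and border macrophage genes, Lyve1, a hyaluronan receptor of border macrophages and lymphatic endothelium, also rose in the pools numbered 2. WT libraries 1 and 2 were at 5.44 and 15.5 CPM, and the mutant-labelled pair at 5.04 and 11.1 CPM. Both libraries numbered 2 were again above both numbered 1, 2.84-fold in WT and 2.20-fold in the mutant-labelled pair (log2 1.32, SE 0.25, edgeR adjusted p = 0.00449). As for Mrc1, the call was lost without WT library 1 (edgeR adjusted p = 0.126) and without mutant-labelled library 1 (edgeR adjusted p = 0.107), and stayed without WT library 2 (edgeR adjusted p = 0.00302) and without mutant-labelled library 2 (edgeR adjusted p = 7.59e-06).

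The other genes of that list varied in direction. Stab1, a scavenger receptor shared with sinusoidal endothelium, was at 86.6 and 82.5 CPM in WT and at 78.1 and 87.3 CPM in the mutant-labelled pair, a log2 difference by number of 0.024 (SE 0.11). Pf4, a chemokine of macrophages and platelets, fell in number 2 (log2 −0.74, SE 0.19, edgeR adjusted p = 0.0177), as did the platelet genes Itga2b and Ppbp, while Gp1bb of the same megakaryocyte list rose (log2 1.24, SE 0.38, edgeR adjusted p = 0.0398). Timd4, a receptor for dying cells on yolk sac macrophages, had 6 and 10 counts in WT and 4 and 11 in the mutant-labelled pair. Both of its values in number 2 were above both in number 1, with a log2 difference as large as that of Mrc1 but no call (log2 1.20, SE 0.64, edgeR adjusted p = 0.202). Cbr2 had 30 and 20 counts in WT and 17 and 4 in the mutant-labelled pair, and overlapped between numbers in CPM. Timd4, Cbr2, Fcrls, Gpr34, Csf1, Cd3e, Elavl4, Dcx and Snap25 were named after their values had been seen. Cd163, F13a1 and Ms4a7 were listed at 0, and all of them have several accessions.

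**Figure D4:**
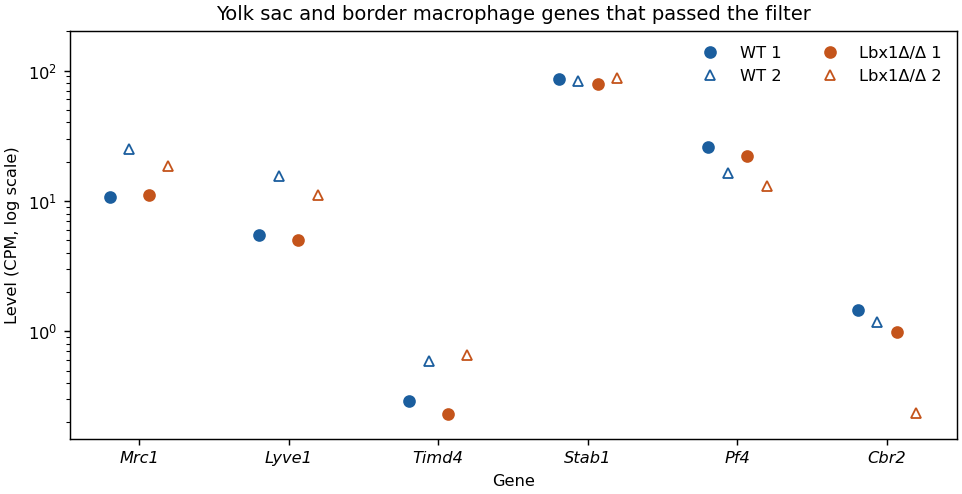
Level in CPM (vertical axis, log scale) of the 6 yolk sac and border macrophage genes that passed the filter in each library, with WT in blue, Lbx1Δ/Δ in orange, number 1 as filled circles and number 2 as open triangles. Mrc1, Lyve1 and Timd4 have both triangles above both circles, Stab1 lies between 78.1 and 87.3 CPM in all 4 libraries, and Pf4 has both triangles below both circles.

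Markers of other cells also went with the number. Of all 10757 genes tested by number, 1429 were higher and 1310 lower in number 2 by the edgeR test. All 4 tested neuron genes were higher in number 2 by the edgeR test, and the 7 listed genes summed to 3148 and 3641 CPM in the libraries numbered 1 against 5831 and 6874 CPM in those numbered 2. All 6 tested red cell genes were lower in number 2, with sums over 9 genes of 8363 and 5994 CPM against 2827 and 2640 CPM, and Hba-a1, Hbb-b1 and Alas2 listed at 0. Of 6 tested muscle genes 5 were lower in number 2, with sums over 8 genes of 877 and 749 CPM against 416 and 132 CPM, and Tnnt1 at 0. Their part in the differences of Mrc1 and Lyve1 was not tested. Endothelial genes summed to 489 and 438 CPM in number 1 and 450 and 468 CPM in number 2, with 4 of the 8 listed (Pecam1, Tek, Emcn and Esam) at 0. These 4, Alas2 and Tnnt1 have several accessions, so a count of 0 gives no level of them. Hba-a1 and Hbb-b1 have 1 accession each. Of the 4 endothelial genes tested, Cldn5, a tight junction gene, rose in number 2 as Mrc1 and Lyve1 did, from 56.0 and 51.5 CPM to 69.7 and 87.2 CPM (log2 0.52, SE 0.14, edgeR adjusted p = 0.0200). Cdh5, Kdr and Tie1 had lower fitted values in number 2 and no call (log2 −0.17, −0.062 and −0.12, edgeR adjusted p = 0.236, 0.723 and 0.455).

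Between libraries the macrophage sum varied less than several of these lists. Its highest library was 1.31 times its lowest, against 1.12 for endothelium, 1.04 for neural progenitors, 2.18 for neurons, 1.87 for megakaryocytes, 3.17 for red cells and 6.64 for muscle. These ratios are a description of 4 libraries and carry no test. A steady sum can hold genes that go apart. In the progenitor list, Fabp7 rose in number 2 (log2 0.77, SE 0.11, edgeR adjusted p = 0.00159) and Mki67 fell (log2 −0.81, SE 0.15, edgeR adjusted p = 0.0043). Among 10188 genes outside the lists with at least 50 counts, the 5 closest to the macrophage sum in centred log2 CPM over the 4 libraries were Snx13, 1810013L24Rik, Kbtbd7, Nuak1 and N4bp2l1, with mean absolute distances of 0.0082 to 0.024. In all, 688 of those genes lay within 0.1, and Csf1r itself was at 0.083, so this closeness is common.

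**Figure D5:**
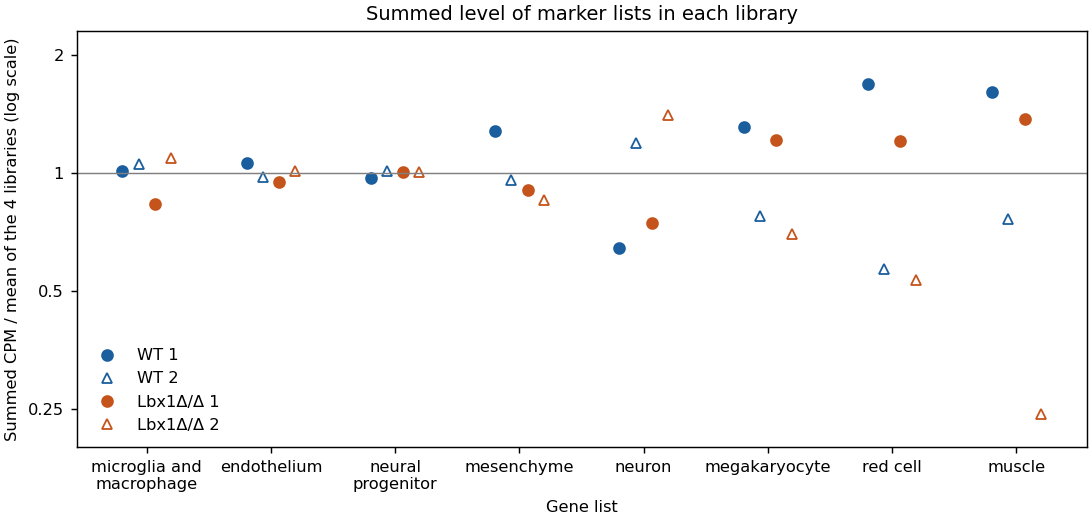
Summed CPM of 8 marker lists in each library, divided by the mean of the 4 libraries (vertical axis, log scale), with WT in blue, Lbx1Δ/Δ in orange, number 1 as filled circles and number 2 as open triangles. The microglia and macrophage sum and the endothelial sum stay near 1, while neuron, red cell and muscle lists separate by number.

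Other genes of the lineage were present in all libraries. Spi1, which encodes PU.1, was at 5.49 and 6.02 CPM in WT and at 4.75 and 6.94 CPM in the mutant-labelled pair. Sall1 was at 140 to 224 CPM and Batf3 at 1.18 to 2.84 CPM. Sall1 is made by neural progenitors as well as microglia, so its level is not one of macrophages alone.

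Among microglial genes, Fcrls, a receptor-like gene of microglia, was at 18.7 and 18.1 CPM in WT and at 11.8 and 15.5 CPM in the mutant-labelled pair. That difference did not pass the test (log2 −0.45, SE 0.25, edgeR adjusted p = 0.9998). The receptor gene Gpr34 was at 2.32 to 3.07 CPM and Olfml3 at 52.5 to 77.9 CPM. Tmem119, a microglial gene of the adult that bone-forming mesenchyme also makes, was at 109 and 99.8 CPM in the libraries numbered 1 and at 59.3 and 40.3 CPM in those numbered 2. It fell in number 2 (log2 −1.08, SE 0.17, edgeR adjusted p = 0.00212), opposite to Mrc1 and Lyve1. Of 10 mesenchyme genes tested, 3 also fell in number 2, Twist1 (log2 −1.42), Prrx1 (log2 −0.98) and Lum (log2 −0.76), with edgeR adjusted p-values of 0.00572, 0.0301 and 0.0115, and 0 rose. By the same test 1310 of all 10757 genes fell in number 2 and 1429 rose. The mesenchyme list summed to 6435 and 4567 CPM in number 1 and to 4836 and 4300 CPM in number 2, and its part in the difference of Tmem119 was not tested.

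None of the 8 phagocytic genes tested was called by genotype or by number in edgeR's tests, and 0 had an unadjusted p under 0.05 by genotype. Laptm5, a lysosomal protein of leukocytes, was at 32.5 to 39.3 CPM, and Mpeg1, the macrophage perforin, at 19.7 to 30.2 CPM. Grn and Lgmn, which many cell types make, were at 135 to 159 CPM and 85.8 to 97.5 CPM. The leukocyte genes Rac2, Arhgap30, Cd53 and Lcp1 were at 7.54 to 9.08, 3.36 to 4.75, 2.55 to 4.81 and 1.36 to 2.04 CPM.

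Receptors of the adaptors were thinly covered. Fcgr1, which pairs with the Fcer1g product, was at 4.03 and 5.02 CPM in WT and at 3.30 and 2.25 CPM in the mutant-labelled pair, without overlap between genotypes and with no call (log2 −0.71, SE 0.39, edgeR adjusted p = 0.9998). Of all genes tested, 9.31% were likewise higher in WT without overlap. Trem2, Fcgr3, Clec4n, Clec5a and Sirpb1a were listed at 0, and the kinase gene Syk had 0 to 3 counts. All of these but Sirpb1a have several accessions. Plcg2, a phospholipase of the same pathway, fell in number 2 (log2 −0.90, SE 0.22, edgeR adjusted p = 0.0163).

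Of the 25 further macrophage genes tested, 0 differed between genotypes in edgeR's test and 0 had an unadjusted p under 0.05, with 8 higher and 17 lower fitted values and a median log2 difference of −0.15. DESeq2 called 0 of them. By number 1 was higher (Lyve1) and 3 were lower (Pf4, Plcg2 and Tmem119), a share below the 25.5% of all genes. Without WT library 1, or without mutant-labelled library 1, 0 of them were called by number, and without WT library 2 there were 8.

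Ligands that other cells present to macrophages were also counted. Cx3cl1, the fractalkine ligand of Cx3cr1, rose in number 2 (log2 0.63, SE 0.16, edgeR adjusted p = 0.0193), from 16.7 and 18.3 CPM to 25.9 and 29.0 CPM. Its receptor Cx3cr1 had a log2 difference of −0.10 in the same comparison. Cd47, the signal against engulfment, was at 31.2 to 40.3 CPM and Tgfb1, a factor microglia depend on, at 24.3 to 30.5 CPM. Il34 was listed at 0 and Csf1 and Cd200 had 0 to 4 counts per library, each with several accessions, so the ligands of Csf1r could not be read.

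Complement genes beyond C1q were also counted. The receptor gene C3ar1 was at 7.97 and 7.38 CPM in WT and at 6.09 and 3.92 CPM in the mutant-labelled pair. C3 had 25 to 49 counts per library and C1ra 0 to 18.

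Markers of neutrophils, mast cells and lymphocytes summed to 6.38 to 10.4 CPM. Mpo, an enzyme of neutrophil precursors, was at 1.95 to 5.78 CPM, above Tyrobp in mutant-labelled library 1 (3.71 against 3.25 CPM, not scaled to length), S100a8 at 1.10 to 3.13 CPM and the mast cell gene Cpa3 at 0.771 to 2.07 CPM. The B cell gene Cd79a was at 0.236 to 0.475 CPM, and Cd3e of T cells had 0 counts in 3 libraries and 6 in mutant-labelled library 2. The platelet and megakaryocyte genes summed to 74.3 and 68.9 CPM in the libraries numbered 1 and to 44.1 and 39.7 CPM in those numbered 2. Of the 5 tested, 3 were lower in number 2 and Gp1bb was higher, at 1.26 and 1.22 CPM in number 1 and 2.54 and 3.44 CPM in number 2.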

How the data were processed

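RNA-seq was made from 4 pools of E12.5 neural tubes, 2 per genotype. The tools named are featureCounts 4.6.0.1, TopHat2 2.1.1 and edgeR 3.4.3, with build mm9, per the submitters' processing notes. The files deposited by the authors hold whole-number read counts for each RefSeq accession, not normalized. Per the sources used here, strand and counting options are not stated.

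The 41411 accessions were named from RefSeq (GRCm38.p6, 41218) and GENCODE M21 (97), 96 stayed unnamed, and counts were summed per symbol to 24971 genes. GRCm38 is another build than mm9: its coordinates are printed only for promoter sequences. CPM were relative to library totals. Transcript lengths were those of GENCODE transcripts matched by accession. Genotype, and separately number, was tested with edgeR 4.0.16 in R 4.3.3 (filterByExpr, minimum count 10 and minimum total 15, TMM, glmQLFit, glmQLFTest, Benjamini-Hochberg at 0.05), after a trial on simulated counts. SE is the log2 difference over the root of F. DESeq2 1.42.0 was an alternative. P-values reflect only how these pools vary, which may be technical in part.

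The members and lists were chosen with earlier results of these data known. All 10 members were named, and from each other list up to 4 genes with the highest counts, genes at 0 and genes called in a fit. Some genes of these lists are not reported here. The 5 most alike genes were taken by the smallest mean distance from the member sum.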

Additional observations from a re-analysis of the deposited data

How the results depend on the processing

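No gene of the 10 was called between genotypes under any alternative run. These were RLE scaling, library totals only, no low-count filter, DESeq2, the accession with most counts per symbol, leaving out single libraries, and a block for the replicate number. With the replicate block edgeR called 92 of all genes (0.855%) and 0 of the 10, with adjusted p-values of 0.478 to 0.985. The labels do not pair the numbers. Same-numbered libraries deviated together (correlation 0.63 over 10673 genes, a hint from the data with only 2 pairs). The 84 log2 differences under alternatives that keep all libraries had the main direction and side of the threshold. The 40 levels stayed within 1 SD, which says little. Taking the accession with most counts changes no level of the 10 genes, and the TMM factors were only 0.993 to 1.015. Leaving out a library, the genotype differences ranged from −0.16 to 0.018 for Csf1r, −0.47 to 0.28 for C1qc, −0.73 to 0.14 for Tyrobp, −0.56 to 0.59 for Fcer1g and −0.75 to 0.44 for Mrc1. By number they ranged from −0.43 to 0.34 for Cx3cr1, −0.27 to 0.054 for C1qb and −0.27 to 0.66 for Tyrobp. Calls by number ranged from 1 to 3917 over all genes and from 0 to 1 among the 10. With fewer than 15 counts in total, Ptprc and Aif1 did not pass the filter, and Aif1, at 0, could not be compared in any run. Without the filter, Ptprc had log2 differences of 5.41 by genotype (edgeR adjusted p = 0.999) and 5.42 by number (edgeR adjusted p = 0.161). These rest on 10 counts, all in mutant-labelled library 2. The alternatives for Lyve1 and the further macrophage genes were chosen after seeing the data.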
